A study of Rattus norvegicus with 18 samples.

Results

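The genes described here are the aryl hydrocarbon receptor (Ahr), its dimer partner Arnt, its repressor Ahrr, and 5 classic AHR target genes, Cyp1a1, Cyp1b1, Aldh3a1, Tiparp and Nqo1. These 8 genes were taken by symbol, and 7 of them were among the 13188 genes of the expression table. Tiparp was not analysed here. RNA-seq was performed on 18 libraries of HO15.19 cells, a Rat1 fibroblast line in which both copies of myc have been removed (myc-/-), in 6 groups of 3 libraries. All groups share this myc-/- background, and HO15.19 is a single line, so its differences are those of one cell line with and without a stably integrated transgene.

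Cells labelled Sed carried no human MYC, and cells labelled SedMYC overexpressed human MYC, which the study drove from a retroviral vector rather than from the gene's own promoter. The Sed and SedMYC groups were not transfected. The groups Sed siCtrl and SedMYC siCtrl received a control siRNA, and the groups SedMYC siAHR-2 and SedMYC siAHR-5 received either of 2 siRNAs against Ahr, each siRNA at 40 nM for 48 h. The comparisons ask whether the rise of Ahr with MYC is also seen in the genes that AHR is known to switch on, and whether knockdown of Ahr in MYC-expressing cells returns these genes to the level of cells without MYC.

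AHR is a transcription factor of the bHLH-PAS family that waits in the cytoplasm in a complex with the chaperone HSP90 and is best known as the receptor for dioxin, for polycyclic aromatic hydrocarbons and for tryptophan breakdown products such as kynurenine. Once a ligand binds, AHR enters the nucleus, pairs with ARNT and binds xenobiotic response elements, whose core letters are GCGTG, near its target genes. Its targets include enzymes that oxidize the ligands (CYP1A1 and CYP1B1), enzymes that detoxify the aldehydes and quinones formed (ALDH3A1 and NQO1), and AHRR, which competes with AHR for ARNT and so limits the response.

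The stretch of 250 bases before the start site is shown for the members that held the core letters, because these letters are the sequence through which the receptor is known to reach its targets. Promoters of 5 of the measured members were found in the RefSeq table (rat assembly GRCr8), which is not the assembly the reads were aligned to. Sequences are given 5′ to 3′ on the strand of the gene, and capitals mark GCGTG or, where the core lies on the other strand, CACGC. Ahrr lies on the plus strand at chr1:30821969-30822218, Cyp1b1 on the plus strand at chr6:21094315-21094564, Nqo1 on the minus strand at chr19:52220268-52220517, and Arnt on the plus strand at chr2:185686453-185686702.
Ahrr: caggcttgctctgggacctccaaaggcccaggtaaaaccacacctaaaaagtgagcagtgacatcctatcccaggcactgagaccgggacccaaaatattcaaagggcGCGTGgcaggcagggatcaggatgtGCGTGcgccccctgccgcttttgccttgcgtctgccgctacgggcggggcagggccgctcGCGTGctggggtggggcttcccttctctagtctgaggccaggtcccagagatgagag
Cyp1b1: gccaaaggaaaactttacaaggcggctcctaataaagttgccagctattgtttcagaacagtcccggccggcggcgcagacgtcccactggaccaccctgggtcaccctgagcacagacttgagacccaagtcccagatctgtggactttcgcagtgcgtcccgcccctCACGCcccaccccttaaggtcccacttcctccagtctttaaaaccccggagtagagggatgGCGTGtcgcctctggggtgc
Nqo1: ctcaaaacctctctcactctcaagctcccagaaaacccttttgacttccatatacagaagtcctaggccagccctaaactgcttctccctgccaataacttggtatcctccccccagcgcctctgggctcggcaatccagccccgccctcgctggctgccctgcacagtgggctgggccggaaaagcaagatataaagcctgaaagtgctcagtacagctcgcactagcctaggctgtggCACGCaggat
Arnt: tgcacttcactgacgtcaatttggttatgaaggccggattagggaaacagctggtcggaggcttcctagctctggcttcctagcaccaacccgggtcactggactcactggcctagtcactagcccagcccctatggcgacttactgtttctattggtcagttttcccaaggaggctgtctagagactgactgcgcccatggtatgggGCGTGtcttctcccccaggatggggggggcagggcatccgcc

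Ahrr held 3 matches, which start 142, 117 and 57 bases before the start site. Cyp1b1 held 2 matches, at 81 bases on the other strand and at 20 bases. Nqo1 held 1 match on the other strand at 10 bases, and Arnt held 1 match at 42 bases. No match to GCGTG on either strand was present in the same window of Ahr (chr6:57998902-57999151, minus strand), in which 75.2% of the bases were G or C. The longer form TNGCGTG was found once in Ahrr and once in Cyp1b1, each time as part of a GCGTG match. The E-box CACGTG, the core sequence bound by MYC with MAX, was in 0 of these 5 windows. Over all 33469 promoters of the table, the same window held GCGTG in 25.9%, TNGCGTG in 4.09% and CACGTG in 5.59%. A match is a description of these letters and not a measured binding site.

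The deposited values are on a log2 scale and are called log2 values here, and a difference between the means of 2 groups is called log2FC. They fell into 2 sets that were not normalized together, a 6-library set (Sed siCtrl and SedMYC) and a 12-library set (the other 4 groups). The first principal component, with 74.7% of the variance, separated the sets, and library medians reached at most 11.05 in the first and were at least 11.61 in the second. Comparisons were for this reason kept inside a set. In each set the MYC comparison also changes the transfection (SedMYC against Sed siCtrl, and SedMYC siCtrl against Sed), so the effects of MYC and of transfection cannot be told apart. The knockdown groups also differ from Sed in both MYC and transfection, so each difference from Sed mixes these with the knockdown. Read depth is unknown. No 2 columns were identical, and as the labels do not say whether replicates were separate cultures, p-values measure only the spread between these libraries, which may be technical. Sed replicate 2 stood apart: 11.4% of all genes were lower there by more than 0.2 than in the other 2 Sed libraries, against at most 2.37% in any other library, and results that use Sed were also computed without it. Among 11 fibroblast markers all were in the table, with Vim at 18.3 to 19.7, Col1a2 at only 3.64 to 4.13, and of 5 epithelial markers 4 were in the table, with Epcam at 1.22 to 2.42 and Cdh1 at 3.61 to 4.31 but Krt8 at 6.02 to 9.05 and Krt19 at 7.30 to 7.73 in the 6-library set and 2.42 to 2.46 in the other. Rat Myc, the gene removed from this line, had values of 10.8 to 10.9 in Sed and 8.16 to 8.53 in the 3 SedMYC groups of the 12-library set, and 9.16 to 9.47 in Sed siCtrl and 8.01 to 8.08 in SedMYC. Whether these reads fall in the removed part of the gene was not tested.

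A gene was called when it changed by a fold of at least 1.5 in either direction with an adjusted p of at most 0.01 (limma, Benjamini-Hochberg over 13188 genes). With MYC, 26.8% of all genes were called in the 6-library set and 25.5% in the 12-library set. Of the 7 members, 5 were called in the 6-library set, with Arnt, Ahrr, Aldh3a1 and Nqo1 higher and Cyp1b1 lower, and 5 in the 12-library set, with Ahr, Arnt, Ahrr, Aldh3a1 and Nqo1 higher. The median log2FC of the members was 0.63 in the 6-library set and 0.90 in the 12-library set, while the median over all genes was -0.0038 and -0.00014. Knockdown reached far fewer genes. With siAHR-2, 0.47% of all genes were called, which included 4 members, all lower: Ahr, Ahrr, Cyp1b1 and Aldh3a1. All 4 calls were lost in a limma fit with a block for replicate number (smallest adjusted p 0.0126), at unchanged log2FC. With siAHR-5, 2.33% of all genes were called, which included these 4 members and Nqo1, again all lower. The median log2FC of the members was -0.80 with siAHR-2 and -0.99 with siAHR-5. These counts and medians include Ahr, the target of both siRNAs, whose fall is the knockdown itself. Both knockdown comparisons and the MYC comparison of the 12-library set use the same 3 SedMYC siCtrl libraries. Groups without overlap were common among all genes: 78.8% and 70.5% with MYC (6- and 12-library set), and 43.3% and 50.5% with siAHR-2 and siAHR-5. Against Sed, 73.0% and 71.7% had no overlap. Of the 7 members this held for 6 and 6, for 7 and 6, and for 4 with each siRNA against Sed. Because RNA was taken from whole cultures, fewer expressing cells and less RNA per cell cannot be told apart.

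**Figure D1:**
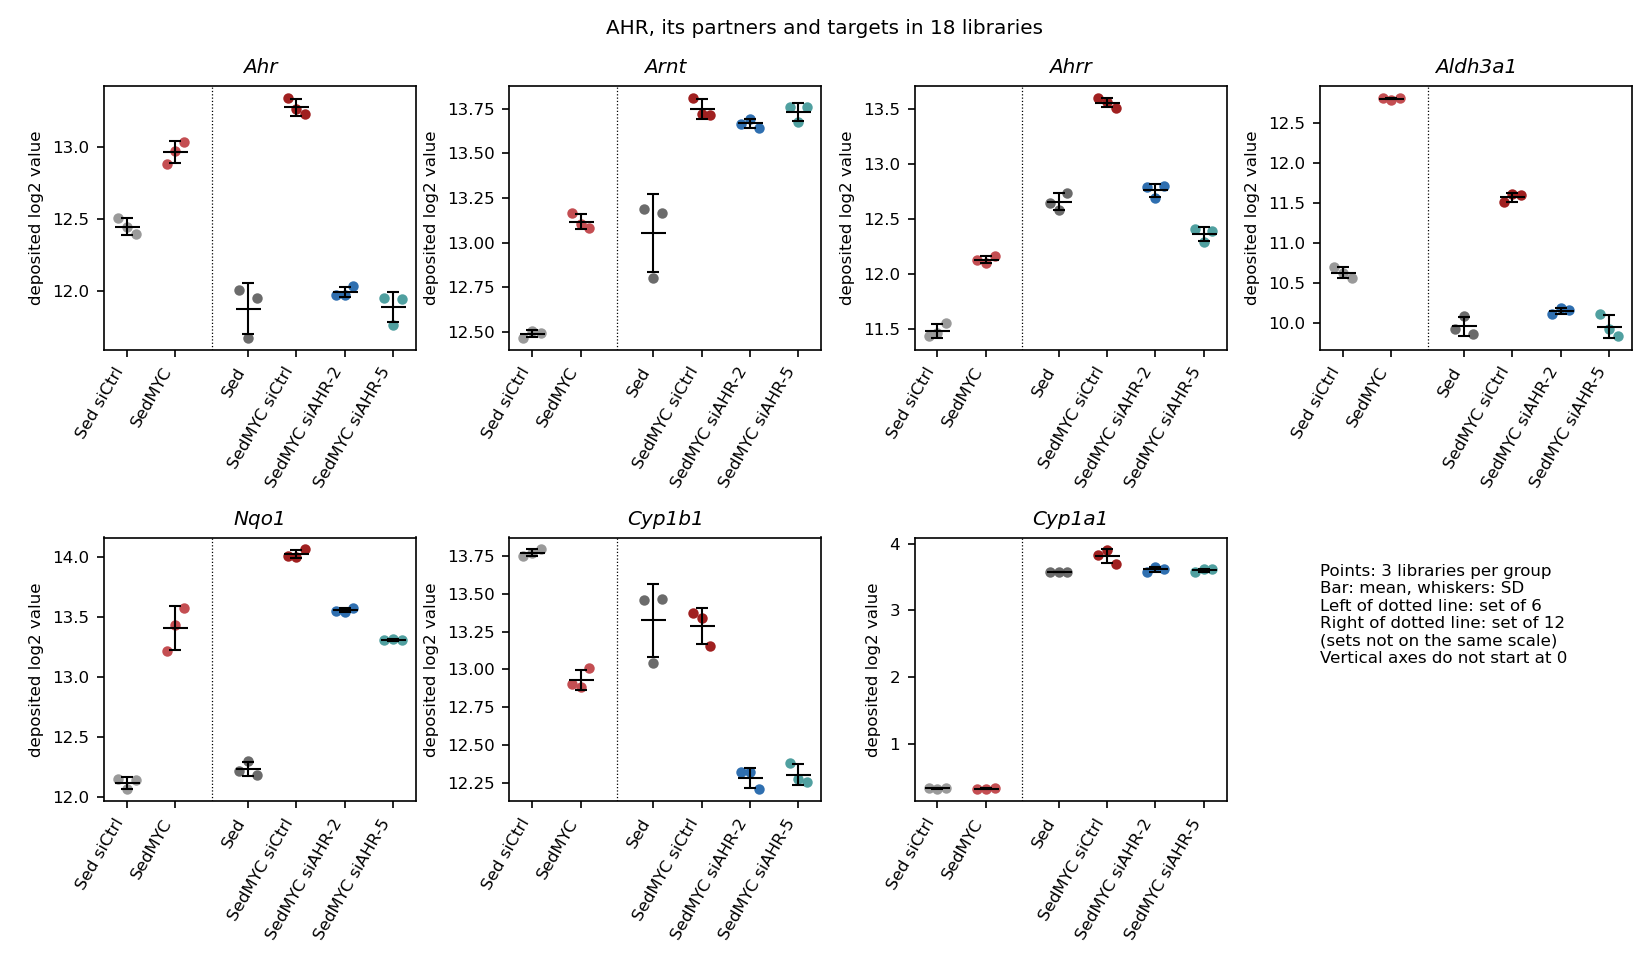
Deposited log2 values of the 7 measured genes, 1 point per library (n = 3 per group), with bars at the mean and whiskers of 1 SD. Groups left of the dotted line belong to the 6-library set and groups right of it to the 12-library set, which are not on the same scale, and the vertical axes do not start at 0. Aldh3a1 in SedMYC siCtrl (11.51 to 11.61) lies above all other groups of its set, and Cyp1b1 with either siRNA (12.20 to 12.38) lies below Sed.

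Ahr, the receptor and the target of both siRNAs, was examined first. Ahr had, in the 12-library set, log2 values of 12.01, 11.67 and 11.95 in Sed and of 13.34, 13.26 and 13.22 in SedMYC siCtrl. The groups did not overlap, and the rise with MYC was 2.64-fold (log2FC 1.40, SE 0.0932, adjusted p = 4.42e-05), or 1.298 on the log2 scale without Sed replicate 2, the lowest of the 3. Ahr in the 6-library set was at 12.50, 12.44 and 12.39 in Sed siCtrl and at 12.88, 12.97 and 13.03 in SedMYC. These groups did not overlap either, but the rise of 1.43-fold (log2FC 0.52, SE 0.0447, adjusted p = 8.33e-07) stayed under the fold cutoff.

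With siAHR-2, Ahr fell to log2 values of 11.97, 11.97 and 12.03, which was 2.44-fold below SedMYC siCtrl (log2FC -1.29, SE 0.0364, adjusted p = 2.37e-04). With siAHR-5 it fell to 11.95, 11.76 and 11.94, 2.62-fold below the control (log2FC -1.39, SE 0.0612, adjusted p = 2.16e-04). Both knockdown groups lay below every control library. Against Sed, the difference of Ahr was 0.11 with siAHR-2 (95% interval -0.11 to 0.34) and 0.01 with siAHR-5 (-0.24 to 0.25), and the libraries of these groups overlapped those of Sed. Leaving out Sed replicate 2, these differences were 0.012 and -0.093. The intervals allow a difference of up to 0.34 on the log2 scale between Ahr in these groups and in Sed.

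Arnt, the partner that AHR needs to bind DNA and that also pairs with the hypoxia factors, rose with MYC but did not follow Ahr upon knockdown. Its log2 values in the 6-library set were 12.47, 12.51 and 12.50 in Sed siCtrl and 13.16, 13.11 and 13.08 in SedMYC, a 1.55-fold rise (log2FC 0.63, SE 0.0331, adjusted p = 1.13e-08). They were, in the 12-library set, 13.19, 12.80 and 13.17 in Sed and 13.81, 13.72 and 13.71 in SedMYC siCtrl, a 1.62-fold rise (log2FC 0.70, SE 0.110, adjusted p = 0.00196). MYC groups lay above their controls in both sets. The call in the 12-library set depended on Sed replicate 2, the lowest library: without it the log2FC was 0.57 (adjusted p = 1.19e-04), under the fold cutoff. It was also lost without any one of the SedMYC siCtrl libraries, at adjusted p of 0.0102 to 0.0116.

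Upon knockdown, Arnt had log2 values of 13.66, 13.69 and 13.64 with siAHR-2 and 13.76, 13.68 and 13.76 with siAHR-5. Against SedMYC siCtrl the log2FC was -0.08 (adjusted p = 0.114) and -0.02 (adjusted p = 0.797), and neither was called. Arnt therefore stood above Sed in both knockdown groups, by 0.62 with siAHR-2 (95% interval 0.35 to 0.88, adjusted p = 0.00269) and by 0.68 with siAHR-5 (0.42 to 0.94, adjusted p = 0.00147). Without Sed replicate 2, these differences were 0.49 and 0.55, both under the fold cutoff. The call with siAHR-2 was also lost without any one of the siAHR-2 libraries (adjusted p of 0.0130 to 0.0148), and that with siAHR-5 without siAHR-5 replicate 3 (adjusted p = 0.0103).

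Ahrr, the feedback repressor, was called higher in both MYC comparisons and lower with both siRNAs. Its log2 values were 11.43, 11.46 and 11.56 in Sed siCtrl and 12.13, 12.10 and 12.16 in SedMYC, a 1.56-fold rise (log2FC 0.65, SE 0.0416, adjusted p = 6.47e-08). In the 12-library set they were 12.65, 12.59 and 12.74 in Sed and 13.60, 13.57 and 13.51 in SedMYC siCtrl, a 1.87-fold rise (log2FC 0.90, SE 0.0470, adjusted p = 1.60e-05), or 0.87 without Sed replicate 2. The SedMYC libraries were all above Sed siCtrl, and the SedMYC siCtrl libraries all above Sed.

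With siAHR-2, Ahrr fell to 12.79, 12.70 and 12.80 (log2FC -0.80, SE 0.0377, adjusted p = 4.08e-04), and with siAHR-5 it fell to 12.41, 12.29 and 12.39 (log2FC -1.19, SE 0.0398, adjusted p = 1.34e-04). The siAHR-2 libraries overlapped Sed (difference 0.11, 95% interval -0.02 to 0.23, adjusted p = 0.113), whereas the siAHR-5 libraries all lay below Sed, by 0.29 on average (log2FC -0.29, interval -0.42 to -0.16, adjusted p = 0.00303), which is under the fold cutoff. Leaving out Sed replicate 2, the differences were 0.07 and -0.33. The siRNAs differed from each other for Ahrr by -0.40 (siAHR-5 minus siAHR-2, interval -0.51 to -0.29, adjusted p = 0.00157), again without passing the fold cutoff.

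Aldh3a1, an aldehyde dehydrogenase that clears aromatic and lipid-derived aldehydes, was the target with the lowest log2FC with either siRNA and the highest log2FC with MYC in the 6-library set. Its log2 values were 10.70, 10.63 and 10.57 in Sed siCtrl and 12.82, 12.80 and 12.81 in SedMYC, a 4.53-fold rise (log2FC 2.18, SE 0.0410, adjusted p = 3.09e-12). Aldh3a1 values in the 12-library set were 9.93, 10.08 and 9.86 in Sed and 11.51, 11.61 and 11.60 in SedMYC siCtrl, a 3.07-fold rise (log2FC 1.62, SE 0.0696, adjusted p = 7.57e-06), or 1.68 without Sed replicate 2. The gap between groups was many times the spread within them.

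With siAHR-2, Aldh3a1 fell to 10.11, 10.19 and 10.16, 2.68-fold below SedMYC siCtrl (log2FC -1.42, SE 0.0393, adjusted p = 2.37e-04). With siAHR-5 it fell to 10.11, 9.92 and 9.83, 3.07-fold below it (log2FC -1.62, SE 0.0787, adjusted p = 2.58e-04). Ranked by log2FC from the lowest, Aldh3a1 was number 1 of 13188 genes with siAHR-2, where Ahr itself was number 2, and number 2 with siAHR-5, where Ahr was number 3. Against Sed, Aldh3a1 differed by 0.20 with siAHR-2 (95% interval 0.03 to 0.36, adjusted p = 0.0454) and by -0.002 with siAHR-5 (-0.23 to 0.23). The siAHR-5 libraries overlapped Sed, while the siAHR-2 libraries lay just above it. These differences were 0.26 (adjusted p = 0.00541) and 0.06 without Sed replicate 2.

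Nqo1, a quinone reductase that is switched on by AHR and also by the stress factor NRF2, rose with MYC and stayed above Sed after knockdown. Its log2 values were 12.15, 12.06 and 12.14 in Sed siCtrl and 13.22, 13.43 and 13.58 in SedMYC, a 2.45-fold rise (log2FC 1.29, SE 0.0728, adjusted p = 2.03e-08). Nqo1 values in the 12-library set were 12.22, 12.30 and 12.18 in Sed and 14.01, 14.01 and 14.07 in SedMYC siCtrl, a 3.47-fold rise (log2FC 1.80, SE 0.0396, adjusted p = 6.85e-07), or 1.83 without Sed replicate 2. The MYC groups lay more than 1 log2 unit above their controls.

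With siAHR-2, Nqo1 was at 13.56, 13.55 and 13.57, below every control library but by less than the fold cutoff (log2FC -0.47, SE 0.0208, adjusted p = 3.73e-04). With siAHR-5 it fell to 13.31, 13.32 and 13.31 and was called (log2FC -0.72, SE 0.0219, adjusted p = 1.13e-04). The difference between the siRNAs was -0.25 (95% interval -0.29 to -0.21, adjusted p = 2.47e-04), under the fold cutoff. Both knockdown groups stayed above Sed without overlap, by 2.51-fold with siAHR-2 (log2FC 1.33, interval 1.24 to 1.42, adjusted p = 9.85e-07) and by 2.11-fold with siAHR-5 (log2FC 1.08, interval 0.98 to 1.18, adjusted p = 2.04e-06). These were 1.36 and 1.11 without Sed replicate 2.

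Cyp1b1, a cytochrome P450 that oxidizes polycyclic hydrocarbons and estradiol, showed the opposite picture: it was not raised by MYC in either set, yet it fell with both siRNAs. Its log2 values in the 6-library set were 13.75, 13.77 and 13.79 in Sed siCtrl and 12.91, 12.88 and 13.01 in SedMYC, a 1.79-fold fall (log2FC -0.84, SE 0.0365, adjusted p = 2.19e-09). Cyp1b1 values in the 12-library set were 13.46, 13.04 and 13.47 in Sed and 13.37, 13.34 and 13.15 in SedMYC siCtrl, and these groups overlapped (log2FC -0.03, SE 0.132, 95% interval -0.36 to 0.29, adjusted p = 0.852). Without Sed replicate 2, the lowest library, the log2FC was -0.17 (adjusted p = 0.0892).

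With siAHR-2, Cyp1b1 fell to 12.32, 12.32 and 12.20, 2.01-fold below SedMYC siCtrl (log2FC -1.01, SE 0.0688, adjusted p = 7.88e-04). With siAHR-5 it fell to 12.38, 12.27 and 12.25, 1.98-fold below it (log2FC -0.99, SE 0.0698, adjusted p = 5.41e-04). All 6 knockdown libraries lay below all 6 libraries of Sed and SedMYC siCtrl. Cyp1b1 thus did not return to the Sed level but went under it, by 1.04 with siAHR-2 (log2FC -1.04, 95% interval -1.34 to -0.74, adjusted p = 4.29e-04) and by 1.02 with siAHR-5 (log2FC -1.02, interval -1.31 to -0.73, adjusted p = 3.60e-04). Without Sed replicate 2 these differences were -1.18 and -1.16. In the RefSeq table Cyp1b1 overlaps Rmdn2, and the library kit does not mark strand. Rmdn2 itself had a log2FC of -0.05 with siAHR-2 and -0.10 with siAHR-5, neither called.

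Cyp1a1, the most used reporter of ligand-activated AHR, had low values throughout. Its Sed values were nearly constant (SD 0.00068), and whether any reads stand behind them is unknown. In the 6-library set, all values lay between 0.32 and 0.34 in both groups (log2FC -0.01, adjusted p = 0.541). In the 12-library set they were 3.57, 3.58 and 3.58 in Sed and 3.82, 3.90 and 3.70 in SedMYC siCtrl, without overlap but by less than the fold cutoff (log2FC 0.23, SE 0.0504, adjusted p = 0.00770; without Sed replicate 2, adjusted p = 0.0226). With the siRNAs Cyp1a1 was at 3.58 to 3.65 (siAHR-2) and 3.57 to 3.62 (siAHR-5), below every control library, and neither difference was called (log2FC -0.19, adjusted p = 0.0484, and log2FC -0.21, adjusted p = 0.0278). The transformation behind the deposited values can shrink differences of genes with low values, so these log2FC are not folds of reads, and no read count can be recovered from them.

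**Figure D2:**
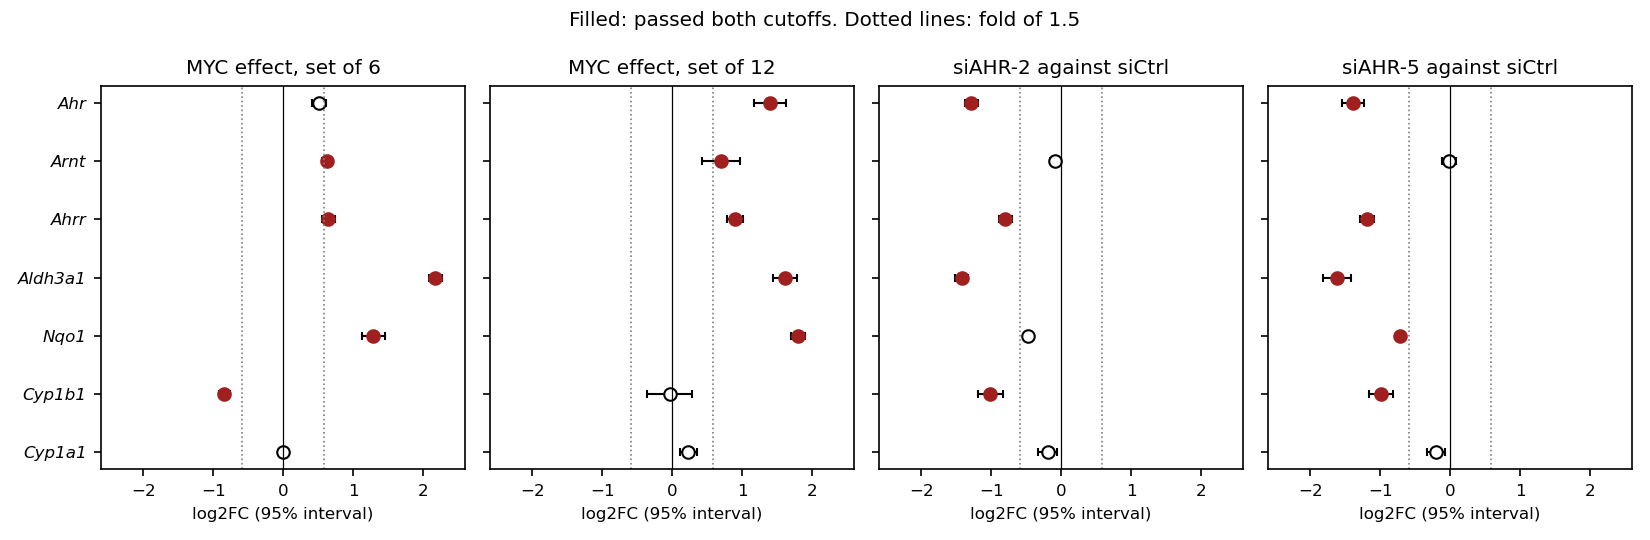
log2FC of each measured gene with its 95% interval in the 2 MYC comparisons and the 2 knockdown comparisons (n = 3 libraries per group). Filled points passed both cutoffs, and dotted lines mark a fold of 1.5. Aldh3a1 lies at 2.18 and 1.62 with MYC and at -1.42 and -1.62 with the siRNAs, while Arnt lies right of 0 with MYC and near 0 with both siRNAs.

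Against Sed, 3 of the 7 members were called with siAHR-2, where 26.9% of all genes were called, and the same 3 with siAHR-5, where 26.5% were: Arnt and Nqo1 higher and Cyp1b1 lower. Without Sed replicate 2 this was 2 of 7 with each siRNA, Nqo1 and Cyp1b1. For Ahr, Ahrr and Aldh3a1, no difference from Sed was called with either siRNA. The largest of these differences was that of Ahrr with siAHR-5, at -0.29 (-0.33 without Sed replicate 2). Cyp1a1, whose Sed values were low and nearly constant, differed from Sed by 0.04 (95% interval -0.01 to 0.09) and 0.03 (-0.02 to 0.07). Without Sed replicate 2 these were 0.038 and 0.027. Between the siRNAs, 2.18% of all genes were called but 0 of the 7 members (limma). An unadjusted p below 0.05 was reached by 3 of the members and by 6176 of all 13188 genes. For Ahr the difference between siRNAs was -0.11 (adjusted p = 0.211), for Aldh3a1 -0.20 (95% interval -0.39 to -0.0046) and for Cyp1b1 0.02 (adjusted p = 0.793).

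**Figure D3:**
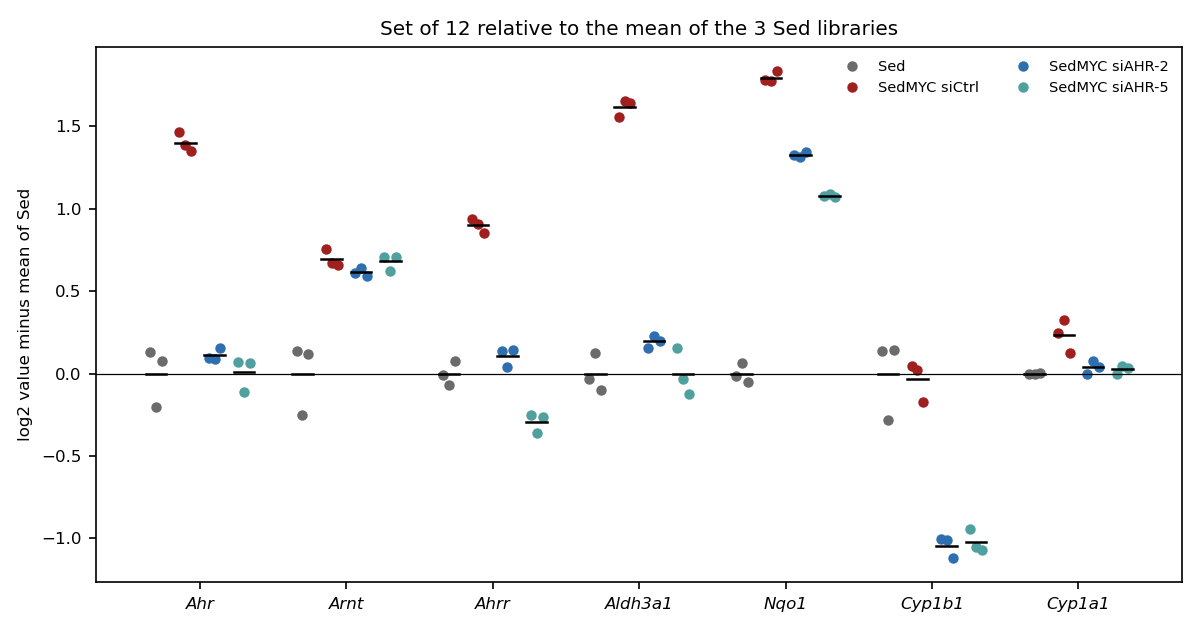
log2 values in the 12-library set minus the mean of the 3 Sed libraries, 1 point per library and a bar at each group mean. With either siRNA the points of Ahr and Aldh3a1 lie near 0, those of Arnt and Nqo1 stay above it, and those of Cyp1b1 lie about 1 log2 unit below it (-1.04 and -1.02).

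The size of the MYC effect was not the same in both sets for every member. In a test of the difference (12-library set minus 6-library set), 16.5% of all genes and 2 of the 7 members were called. Ahr rose more in the 12-library set (difference 0.88, SE 0.102, adjusted p = 3.50e-06), and the fall of Cyp1b1 in the 6-library set was not matched in the other (difference 0.81, SE 0.128, adjusted p = 8.18e-05). Without Sed replicate 2, these differences were 0.78 and 0.67 and both were still called. Nqo1 differed by 0.50 (adjusted p = 4.51e-04), Ahrr by 0.26 (adjusted p = 0.00458) and Aldh3a1 by -0.56 (adjusted p = 4.06e-05), all under the fold cutoff. Aldh3a1 was called on leaving out Sed replicate 3 (-0.61) or Sed siCtrl replicate 1 (-0.594), and Nqo1 on leaving out SedMYC replicate 3 (0.589). For Arnt the difference was 0.07 (adjusted p = 0.620). The transfection label changes in opposite ways in the 2 MYC comparisons, and its part in these differences was not tested.

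Genes with a pattern most like that of Ahr were sought over 3 differences of group means from SedMYC siCtrl (Sed, siAHR-2 and siAHR-5), by Euclidean distance in log2 units, across all 13188 genes. The nearest were Aldh3a1 (distance 0.344), Ahrr (0.727), Adh7 (1.04), Nqo1 (1.13) and Ppip5k2 (1.16), so that 3 of the 5 nearest genes were members. All 3 differences subtract the same SedMYC siCtrl mean, and the distances that this alone would bring were not tested. Cyp1b1 was number 48, Arnt 1054 and Cyp1a1 1243. Without Sed replicate 2, Aldh3a1, Ahrr and Adh7 were still the first 3 (distances 0.467, 0.684 and 1.03). Ppip5k2 was then number 4 and Nqo1 number 6, outside the nearest 5. Cyp1b1 was number 88, Cyp1a1 1170 and Arnt 1421. Adh7, an alcohol dehydrogenase that also oxidizes retinol, had log2 values of 6.53 to 6.65 in Sed, 7.65 to 7.78 in SedMYC siCtrl, 7.07 to 7.20 with siAHR-2 and 6.97 to 7.20 with siAHR-5. Its knockdown groups lay between Sed and SedMYC siCtrl, and in the 6-library set, which the distance did not use, Adh7 rose with MYC by 1.54 on the log2 scale (adjusted p = 4.16e-10). Ppip5k2, a kinase of inositol pyrophosphates, was at 10.78 to 11.22 in Sed, 12.12 to 12.14 in SedMYC siCtrl, 11.57 to 11.66 with siAHR-2 and 11.42 to 11.64 with siAHR-5. Its rise in the 6-library set, of 0.50 (adjusted p = 2.80e-06), was under the fold cutoff.

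Other genes of the pathway were described from lists drawn up from textbook knowledge. Over all genes, 12.5% were called higher and 14.3% lower with MYC in the 6-library set, and 10.8% and 14.7% in the 12-library set. Leaving out Sed replicate 2 changed none of the counts of the 5 lists in that set, and the log2FC of the list genes named moved by at most 0.14. Of 16 genes of the receptor complex and its coactivators, 14 were in the table. With MYC, 0 were called higher and 2 lower in the 6-library set, and 2 higher and 4 lower in the 12-library set. Both genes called lower in the first were also called lower in the second: Nrip1, a corepressor of nuclear receptors (log2FC -0.64 and -1.25), and Cul4b, the scaffold of the ubiquitin ligase that AHR joins (-0.92 and -0.76). With siAHR-2 and siAHR-5, 0 of 14 were called (limma). An unadjusted p below 0.05 was reached by 8 and 11 of them, and by 5326 and 6300 of all 13188 genes. Their median log2FC was -0.06 with each siRNA.

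Of 16 bHLH-PAS relatives, 15 were in the table, with 2 called higher and 3 lower with MYC in the 6-library set, and 1 higher and 4 lower in the 12-library set. Arnt2, the close relative of Arnt, was lower with MYC, with a log2FC of -3.57 and -3.58 (adjusted p = 1.32e-12 and 1.12e-06), in the direction opposite to Arnt. Sim2, a developmental factor that also pairs with ARNT, had a log2FC of -1.56 and -0.94. Upon knockdown, 0 of 15 were called with either siRNA (limma). An unadjusted p below 0.05 was reached by 8 and 9 of them, beside the 5326 and 6300 of all 13188 genes. The log2FC of Arnt2 was -0.18 with siAHR-2 and 0.04 with siAHR-5.

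Of 23 further genes known to respond to AHR, 20 were in the table. With MYC, 2 were called higher and 9 lower in the 6-library set, and 1 higher and 8 lower in the 12-library set. The median log2FC was -0.52 and -0.13. Il6, an inflammatory cytokine, had a log2FC of -1.81 in the 6-library set and -2.82 in the 12-library set, and Ugt1a6, a glucuronosyltransferase that conjugates phenols, had -3.24 and -2.25. The gene called higher in both sets was Vav3, a guanine nucleotide exchange factor (2.40 and 2.54).

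With knockdown, 1 of these 20 was called lower with siAHR-2 and 1 higher with siAHR-5. Ugt1a6 fell from 8.99 to 9.13 in SedMYC siCtrl to 8.39 to 8.47 with siAHR-2 (log2FC -0.65, SE 0.0531, adjusted p = 0.00126) and was at 8.84 to 8.92 with siAHR-5 (log2FC -0.20, adjusted p = 0.0338). Its span overlaps those of other Ugt1a genes, with which it can share reads, so its values are uncertain.

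Of 14 symbols listed for enzymes that make tryptophan and kynurenine ligands, some of which are older and newer names of one enzyme, 6 were in the table. With MYC, 3 were called higher and 0 lower in the 6-library set, and 2 higher and 1 lower in the 12-library set. Ccbl2, a kynurenine aminotransferase, rose by 3.25 and 2.97 on the log2 scale (adjusted p = 1.17e-11 and 7.29e-07), from 6.03 to 6.27 in Sed siCtrl to 9.33 to 9.45 in SedMYC and from 7.75 to 7.93 in Sed to 10.75 to 10.82 in SedMYC siCtrl. Afmid, the formamidase that releases kynurenine, rose by 1.29 and 1.199. With the siRNAs 0 of 6 were called (limma). With each, 3 had an unadjusted p below 0.05, beside 5326 (siAHR-2) and 6300 (siAHR-5) of all 13188 genes. Ccbl2 had a log2FC of -0.22 with siAHR-2 and -0.56 with siAHR-5, and with the siRNAs it stayed at 10.16 or more, above every Sed library.

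Because Nqo1 also belongs to the NRF2 response, 13 symbols of that response were looked up, of which 12 were in the table. With MYC 0 were called higher in either set (limma). In either direction, 9 and 11 had an unadjusted p below 0.05, beside 10221 and 8875 of all 13188 genes. Called lower were 4 and 3, among them Hmox1, the heme oxygenase (log2FC -0.99 in the 6-library set and -1.29 in the 12-library set), and Slc7a11, the cystine importer (-1.84 and -1.12). Gsr, the glutathione reductase, and Osgin1 had a log2FC of 0.51 each in the 12-library set (adjusted p = 1.43e-05 and 0.00106), under the fold cutoff, and Gclc, a subunit of the first enzyme of glutathione synthesis, had 0.32 (adjusted p = 9.43e-05). In the 6-library set their log2FC was smaller, at 0.14 (Gsr), 0.06 (Osgin1, adjusted p = 0.370) and 0.12 (Gclc). Of the same list, Srxn1 and Me1 were lower in the 12-library set (log2FC -0.54 and -0.38) and were not called there either. All of these genes were chosen after their values were seen. With siAHR-2, Hmox1 was called higher (log2FC 0.66, SE 0.0279, adjusted p = 3.73e-04), and with siAHR-5 it had a log2FC of 0.57 (adjusted p = 3.62e-04), just under the fold cutoff. With siAHR-5 Slc7a11 was called higher (log2FC 0.65, SE 0.0616, adjusted p = 0.00103), and Txnrd1, the thioredoxin reductase, was called lower (log2FC -1.09, SE 0.0174, adjusted p = 2.73e-05), at 13.87 to 13.90 against 14.96 to 14.99 in the control. With siAHR-2, Txnrd1 was at 14.71 to 14.78 (log2FC -0.23, adjusted p = 0.00183) and Slc7a11 had a log2FC of -0.14 (adjusted p = 0.0583), so neither was called.

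**Figure D4:**
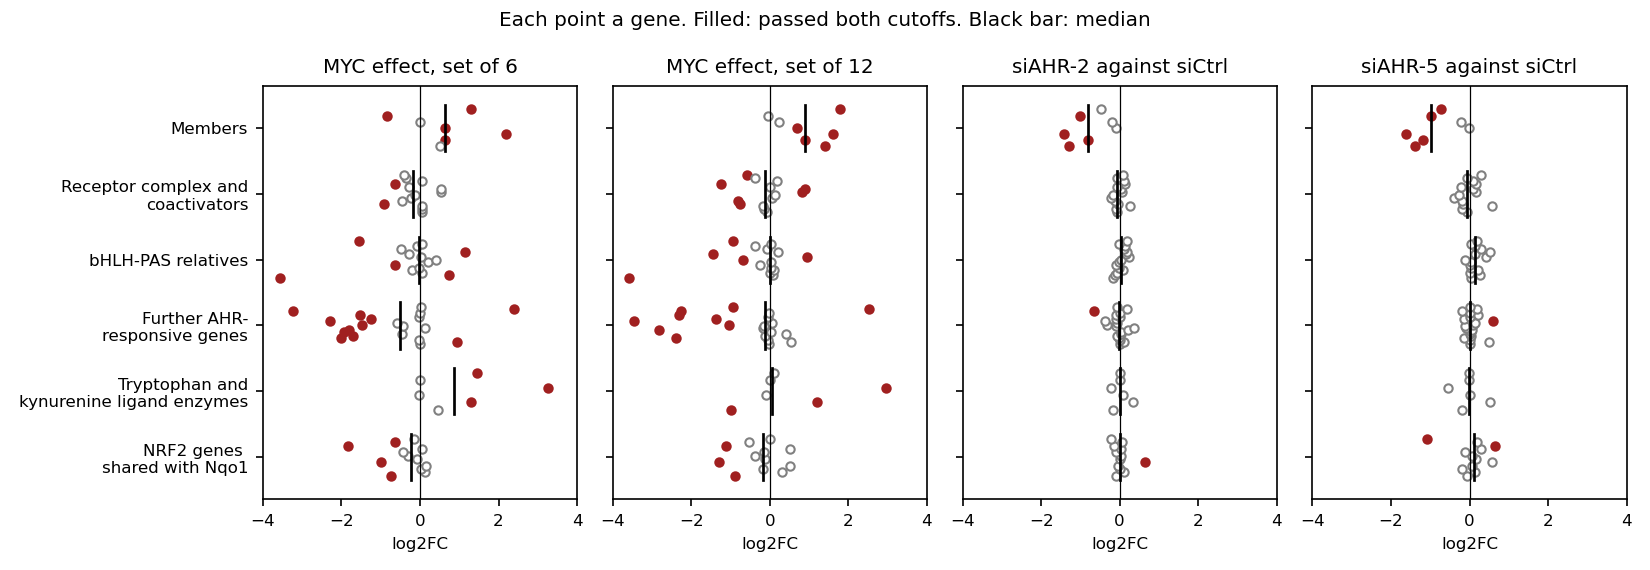
log2FC of the members and of the genes of 5 related lists in the 2 MYC comparisons and the 2 knockdown comparisons, 1 point per gene, with filled points past both cutoffs and a black bar at the median. The member medians were -0.80 and -0.99 with the siRNAs, and those of the 5 lists were -0.06 to 0.13. The members include Ahr, the target of the siRNAs, and members and lists were chosen with earlier results of these data known.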

How the data were processed

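RNA-seq was measured in 18 libraries of 6 groups, and groups and replicate numbers were taken from the sample labels. The authors aligned reads to rn6 with HISAT2 2.1.0, removed genes with few reads and normalized with DESeq2. The read counter, the gene annotation and the transformation to the deposited log2 values are not given in the sources used here. The deposited table is labelled as log CPM, but its values taken off the log scale add up, per library, to between 86.3 and 161 times what a CPM column adds up to. They give no read counts, so depth and the precision it sets are unknown, and error is the spread between libraries. The columns without a sample numbered 0.

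Values as deposited were tested with limma 3.58.1 in R 4.3.3 (lmFit, eBayes with trend) on the groups compared, with Benjamini-Hochberg adjustment over all genes. A count model could not be run on log values. Promoters and figures were processed in Python 3.11.15 with matplotlib 3.10.9.

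The members and gene lists were chosen with earlier results of these data known. Named beside the members are list genes called with either siRNA, up to 3 per list with the largest log2FC called in the same direction in both MYC comparisons, and the 5 genes nearest to Ahr. Gsr, Osgin1, Gclc, Srxn1 and Me1 of the NRF2 list are named outside this rule. Deviations of same-numbered libraries from their group means correlated positively for every number in 1 comparison only, siAHR-5 against Sed (r = 0.104, 0.281 and 0.165). These were not set against differently numbered libraries, so whether replicates were paired was not tested. The labels give no pairing.

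Alternatives were an adjusted p below 0.05 without fold cutoff, one fit over the whole 12-library set, eBayes without the trend, quantile normalization, median centring, a filter that keeps genes averaging 1 or more, adding a pseudocount of 1, a replicate block, leaving out each library in turn, and a longer promoter window. The list genes and the distances to Ahr without Sed replicate 2 were added after seeing the data. The values of 2 list genes that the naming rule picks are not reported here. Tiparp and the promoters of members without a RefSeq table entry were not analysed here.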

Additional observations from a re-analysis of the deposited data

Results flagged for a closer look

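The MYC effect on Ahr differed between the sets by 0.88 on the log2 scale (12-library set minus 6-library set, limma adjusted p = 3.50e-06), with a rise of 1.40 in the one and 0.52 in the other and no overlap of groups in either. The MYC effect on Cyp1b1 differed by 0.81 (limma adjusted p = 8.18e-05), with overlapping groups in the 12-library set (log2FC -0.03). In the 6-library set all SedMYC libraries lay below all Sed siCtrl libraries (log2FC -0.84). The transfection of the MYC cells and of their controls is exchanged between the sets, and which of MYC, transfection and normalization differs cannot be told apart.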

How the results depend on the processing

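Depth cannot be read from these values, so what it limits is unknown. With an adjusted p below 0.05 and no fold cutoff, the genes called were 10051 (MYC, 6-library set), 8538 (MYC, 12-library set), 3860 (siAHR-2) and 5169 (siAHR-5) against SedMYC siCtrl, 8864 and 8740 against Sed, 5151 between the siRNAs and 7235 for the difference between sets, and members called were 2 between the siRNAs and 6 for the difference between sets. With the replicate block, siAHR-2 against SedMYC siCtrl gave 0 genes and 0 members (smallest adjusted p 0.0126), with 5030 genes and 6 members at an unadjusted p below 0.05. The log2FC were unchanged under the block (Ahr -1.29, Ahrr -0.80, Cyp1b1 -1.01 and Aldh3a1 -1.42). These libraries share only a number (r = 0.058, 0.001 and -0.029), and the block changed no member call in the other comparisons.

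Differences near 0 turned sign. Cyp1b1 with MYC in the 12-library set was 0.024 under quantile normalization, 0.0084 under median centring and -0.17 to 0.039 on leaving out single libraries. Arnt with siAHR-5 was -0.034 to 0.015 on leaving out single libraries. Against Sed with siAHR-5, Ahr was -0.0070 under quantile normalization, -0.0084 under median centring and -0.093 to 0.074 on leaving out single libraries, and Aldh3a1 was -0.080 to 0.061. Between the siRNAs, Cyp1b1 was -0.0074 under median centring and -0.018 to 0.046 on leaving out single libraries, and Cyp1a1 was -0.030 to 0.0075. The set difference of Arnt was -0.058 to 0.14. The cause was not tested.

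Quantile normalization brought Ahr in the 6-library set to 0.59 and the set difference of Aldh3a1 to -0.75, and median centring brought that of Nqo1 to 0.59, all called. On leaving out single libraries, members called were 5 in the 6-library set, 4 to 5 in the 12-library set, 4 with siAHR-2, 5 with siAHR-5 2 to 3 against Sed with each siRNA and 2 to 3 for the difference between sets. The calls lost were those of Arnt, and those gained were of Aldh3a1 and Nqo1 in the difference between sets. Each motif was found in as many member promoters in the longer window as in the shorter.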
